A study of Mus musculus with 6 samples.

Results

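The chloride cotransporter and WNK kinase genes examined here were Slc12a2, Slc12a4, Slc12a5, Slc12a7, Slc12a9, Wnk1, Wnk2, Wnk3 and Stk39. They were chosen by gene symbol, as genes whose products set or regulate the chloride gradient behind GABA responses. All 9 were found in the deposited expression table, each at a single locus, and all 9 were among the 13195 loci tested, out of 47086 loci in the table. Total RNA came from primary hippocampal cultures prepared from newborn mice labelled C57BL/6, either wild type (WT) or carrying the *Fmr1* knockout (KO), at day 14 in vitro. Each genotype had 3 libraries, and the labels name no drug. *Fmr1* encodes FMRP, the RNA-binding protein lost in fragile X syndrome, and the labels do not describe the KO allele further. The methods describe the colony as male KO animals with WT littermates, born to heterozygous mothers. They say that data of biochemical analyses with primary neurons were combined across litters, and do not say this of the RNA libraries. No source used here gives the litter, pup sex or substrain behind a single library, so p-values measure the spread between these libraries, which may be partly technical.

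Neurons respond to GABA by opening a chloride channel, and the direction of the current depends on the chloride inside the cell. The sodium-potassium-chloride cotransporter NKCC1, encoded by Slc12a2, loads chloride, and the potassium-chloride cotransporter KCC2, encoded by Slc12a5, extrudes it and is restricted to neurons. As neurons mature, KCC2 becomes abundant and GABA shifts from depolarising to hyperpolarising. WNK kinases sense chloride and activate the kinases SPAK (Stk39) and OSR1 (Oxsr1), whose phosphorylation of the cotransporters stimulates NKCC1 and inhibits the potassium-chloride cotransporters.

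Expression was given as FPKM, fragments per kilobase of transcript scaled by the mapped fragments of the library, which allows levels of different genes to be compared within a library. Loci with a mean of at least 1 FPKM in either genotype were compared as log2(FPKM + 0.1) with limma, two-sided, with Benjamini-Hochberg adjustment over all 13195, and differences are given as *Fmr1* KO minus WT. The number of reads is unknown. The most common ratio at loci of low FPKM placed WT replicate 1 as the library in which a fragment weighs most, 1.1 to 1.34 times the weight in the other libraries, which is a relative depth only if mapped fragments set the scale. Bc1, a short noncoding RNA, accounted for 73.7 to 80.6% of the summed FPKM. Pearson's r between libraries was 0.962 to 0.978 across loci, which are not independent replicates. The *Fmr1* transcript had an FPKM of 19.0, 19.5 and 19.7 in WT, against 23.1, 21.8 and 18.5 in *Fmr1* KO (log2 difference 0.12, standard error 0.08, adjusted p = 0.536 in limma). By an exact two-sided permutation test p was 0.4, with 0.1 as the lowest value possible for 3 against 3. Since a gene-level FPKM also counts reads of a disrupted transcript, the genotype labels could not be checked with it, and every direction given here rests on them.

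Slc12a5 was the most abundant of the 9 genes. Its FPKM was 72.3, 80.4 and 75.5 in WT, against 72.4, 75.5 and 76.6 in *Fmr1* KO, above 94.0% of tested loci by its mean. Next came Wnk1, with a mean of 28.1 FPKM over the 6 libraries, and the ranges of these genes did not overlap. Slc12a9, Wnk2, Stk39 and Slc12a4 followed at means of 18.9, 16.9, 16.8 and 16.1 FPKM. Of these neighbours in the order, Slc12a9 was above Wnk2 in 6 of 6 libraries although their ranges overlapped, Wnk2 was above Stk39 in 3 of 6 and Stk39 above Slc12a4 in 4 of 6. The levels of the last 3 thus did not differ beyond their spread. Slc12a2 had a mean of 11.3, Wnk3 of 5.12 and Slc12a7 of 3.49 FPKM, and each of these ranges lay apart from its neighbours.

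**Figure D1:**
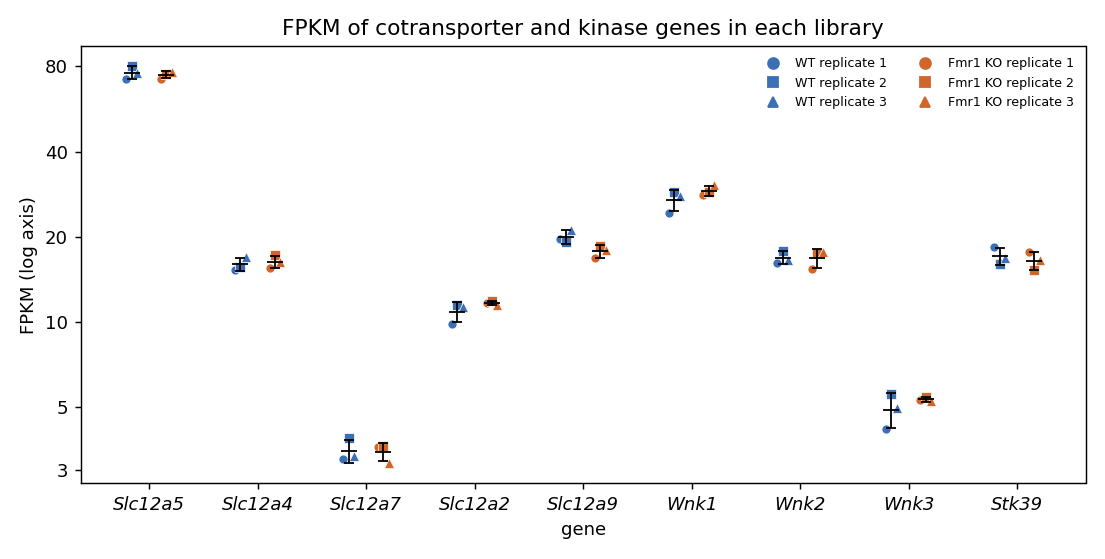
FPKM (log axis) of the 9 genes in each library, in blue for WT and orange for *Fmr1* KO, with a marker shape for each replicate number and black bars for mean and SD (n = 3). Slc12a5 lies between 72.3 and 80.4 FPKM in all 6 libraries, and Slc12a9 is the gene whose *Fmr1* KO libraries all lie below the WT libraries.

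None of the 9 genes differed between genotypes at an adjusted p below 0.05 in limma, a threshold that 0.265% of all tested loci passed. Their adjusted p ranged from 0.267 to 0.979. At an unadjusted p below 0.05 in limma there was 1 gene, Slc12a9, against 14.8% of all tested loci, 6.99% higher and 7.77% lower in *Fmr1* KO. The same gene was the one whose libraries did not overlap between genotypes, against 21.1% of tested loci in either direction, 10.8% with *Fmr1* KO above WT and 10.3% with *Fmr1* KO below. The log2 difference was above 0 in 4 genes and below 0 in 5, with a median of -0.01, beside 51.7% of loci above 0 and a median of 0.005 over all tested loci. The median size of the log2 difference was 0.05 in the 9 genes and 0.08 over all tested loci. For 8 of the 9 genes the 95% interval of the difference, not adjusted for the number of genes, held 0. Across the 9 intervals the fold difference ran from 0.806, the lower bound of Slc12a9, to 1.29, the upper bound of Wnk3, so that larger differences in either direction lie outside these intervals. Replicates of these genes were about as close as those of other loci: the residual SD of the log2 values was lowest in Slc12a5 (0.06) and highest in Wnk3 (0.15), with a median of 0.10 over all tested loci.

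Among the chloride extruders, Slc12a5 (locus XLOC_004210, GRCm38 chromosome 2, 164960821 to 164999731) measured 76.1 ± 4.08 FPKM in WT, against 74.8 ± 2.18 in *Fmr1* KO (SD, n = 3). Its log2 difference was -0.02 (standard error 0.05, adjusted p = 0.886 in limma), and the 95% interval of the fold difference was 0.906 to 1.07. The libraries of the genotypes overlapped, and the sign of this small difference turned without WT replicate 2 (0.02). The summed level of 5 markers of all neurons (Rbfox3, Tubb3, Snap25, Syt1 and Map2) was 963 to 994 FPKM in WT, against 989 to 1056 in *Fmr1* KO. Of these markers Map2 had separated libraries, with 302 ± 6.19 FPKM in WT, against 362 ± 7.24 in *Fmr1* KO (SD, n = 3), whereas Snap25 (264 ± 16.7 against 236 ± 19.2), Syt1 (177 ± 11.6 against 166 ± 7.42) and Rbfox3 had lower means in *Fmr1* KO and overlapped. Tubb3 had a higher mean in *Fmr1* KO (201 ± 4.40 FPKM, against 189 ± 8.95 in WT) and overlapped. A different share of neurons and a different amount of RNA per neuron cannot be told apart in such cultures.

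Slc12a4 encodes KCC1, a potassium-chloride cotransporter of many cell types that serves volume regulation. It had 15.3, 15.7 and 16.9 FPKM in WT, against 15.5, 17.2 and 16.3 in *Fmr1* KO (log2 difference 0.03, standard error 0.06, adjusted p = 0.866 in limma). Slc12a7, which encodes KCC4 of the same family, had 3.27, 3.89 and 3.35 in WT, against 3.62, 3.65 and 3.18 in *Fmr1* KO (log2 difference -0.01, standard error 0.10, adjusted p = 0.979 in limma). Both genes had overlapping genotypes. Together with Slc12a5, these genes summed to 90.8 to 99.99 FPKM in WT, against 91.5 to 96.3 in *Fmr1* KO. Slc12a5 supplied 78.8 to 80.4% of the sum of these 3 genes in WT, against 78.3 to 79.8% in *Fmr1* KO.

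The chloride loader Slc12a2 (locus XLOC_039792, chromosome 18, 57878512 to 57946821) had an FPKM of 9.87, 11.5 and 11.3 in WT, against 11.7, 11.8 and 11.5 in *Fmr1* KO. WT replicate 1 was the lowest library and WT replicate 2 reached into the *Fmr1* KO range, so the genotypes overlapped. The log2 difference of 0.10 (standard error 0.07, adjusted p = 0.543 in limma) corresponds to a fold of 1.07, with a 95% interval of 0.961 to 1.20, and it was 0.03 without WT replicate 1. NKCC1 is also used by glial cells and, at high levels, by the epithelium of the choroid plexus. Oligodendrocyte lineage markers summed to 188 to 213 FPKM in WT, against 212 to 237 in *Fmr1* KO. Of 6 choroid plexus markers, Ttr had 52.0 to 60.7 FPKM in *Fmr1* KO, against 0 to 0.0910 in WT, and the other 5 reached at most 1.63 FPKM in any library. Kcnj13, Otx2 and Clic6, all below 1 FPKM, were higher in every *Fmr1* KO library than in any WT library, whereas Folr1 and Kl were not. The part of these cells in the Slc12a2 values was not tested.

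The ratio of Slc12a5 to Slc12a2, extruder over loader, was 7.33, 6.98 and 6.70 in WT, against 6.18, 6.37 and 6.67 in *Fmr1* KO. Every WT library thus lay above every *Fmr1* KO library, by a margin that was narrow between WT replicate 3 and *Fmr1* KO replicate 3. Means were 7.0 ± 0.316 and 6.41 ± 0.247 (SD, n = 3), a log2 difference of -0.13 that stayed between -0.16 and -0.09 when each library was left out. No test was run on this ratio. Of single loci, 21.1% did not overlap in either direction, by whatever margin, and such a share was not computed for ratios. Neither gene of the ratio passed the test by itself.

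**Figure D2:**
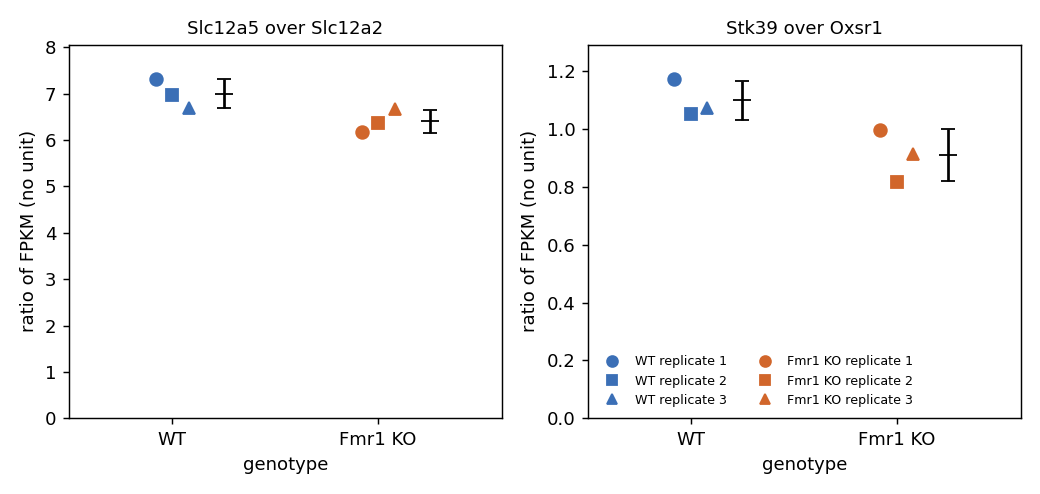
Ratio of FPKM (no unit, axis from 0) in each library for Slc12a5 over Slc12a2 and for Stk39 over Oxsr1, with coloured markers for libraries and black bars for mean and SD (n = 3). In both panels the *Fmr1* KO libraries lie below the WT libraries, at 6.18 to 6.67 against 6.70 to 7.33 and at 0.816 to 0.996 against 1.05 to 1.17. No test was run on either ratio, and of single loci 21.1% did not overlap in either direction.

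Slc12a9 encodes a relative of the cation-chloride cotransporters, known as CIP1, that was described as an interacting protein of NKCC1 and whose own transport activity is less well defined. Its locus XLOC_013176 lies on chromosome 5 (137314558 to 137336860). The FPKM was 19.7, 19.1 and 21.2 in WT, against 16.8, 18.6 and 17.9 in *Fmr1* KO. All 3 *Fmr1* KO libraries were below all 3 WT libraries, with means of 17.8 ± 0.904 and 19.99 ± 1.07 (SD, n = 3). The log2 difference was -0.17 (standard error 0.06, unadjusted p = 0.025, adjusted p = 0.267 in limma), a fold of 0.889 with a 95% interval of 0.806 to 0.982. It did not pass the adjusted threshold. Without WT replicate 3, *Fmr1* KO replicate 1 or *Fmr1* KO replicate 3 the unadjusted p in limma was 0.0984, 0.0899 and 0.0508.

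Of the WNK kinases, Wnk1 is the widely expressed member, Wnk2 is known for its expression in brain, and Wnk3 is a neuronal regulator of NKCC1 and KCC2. Wnk1 (chromosome 6, 119923969 to 120038679) had an FPKM of 24.3, 28.8 and 27.9 in WT, against 28.0, 28.9 and 30.4 in *Fmr1* KO. The log2 difference was 0.11 (standard error 0.07, adjusted p = 0.514 in limma), and 0.04 without WT replicate 1, the lowest library. Wnk2 (chromosome 13) had 16.9 ± 0.874 and 16.9 ± 1.28 FPKM (SD, n = 3) and a log2 difference of -0.01 (standard error 0.07, adjusted p = 0.977 in limma). Wnk3 lies on chromosome X, as *Fmr1* does, but starts 82.45 Mb beyond it (151168778 to 151341879). Its FPKM was 4.18, 5.57 and 4.97 in WT, against 5.30, 5.44 and 5.24 in *Fmr1* KO. The WT range enclosed the *Fmr1* KO range, and the log2 difference was 0.13 (standard error 0.11, adjusted p = 0.624 in limma), or 0.02 without WT replicate 1. Wnk4, known mainly from the kidney, had 0.394, 0.648 and 0.719 FPKM in WT, against 0.381, 0.236 and 0.380 in *Fmr1* KO and was too low to be tested. Wnk1 made up 54.0 to 55.6% of the summed FPKM of the 4 WNK genes in WT, against 55.5 to 57.1% in *Fmr1* KO, and the order of the WNK genes was the same in both genotypes. The annotation (GENCODE vM21, GRCm38) gives 26 transcripts for Wnk1, 15 of them protein-coding, and 10 for Slc12a5, and an FPKM of the whole locus does not separate kidney-type or neuronal forms of Wnk1 or the alternative first exons of Slc12a5.

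Stk39 encodes SPAK, the kinase that WNK kinases activate and that binds the cotransporters. Its FPKM was 18.3, 16.0 and 16.9 in WT, against 17.7, 15.3 and 16.5 in *Fmr1* KO, which overlapped. The log2 difference was -0.05 (standard error 0.07, adjusted p = 0.799 in limma), with a 95% interval of the fold of 0.858 to 1.08. Its close relative Oxsr1 (OSR1) had 15.6, 15.3 and 15.8 FPKM in WT, against 17.8, 18.7 and 18.1 in *Fmr1* KO, with every *Fmr1* KO library above every WT library. The log2 difference of Oxsr1 was 0.22 (standard error 0.05, unadjusted p = 0.00196, adjusted p = 0.115 in limma), a fold of 1.17 with a 95% interval of 1.08 to 1.26 that did not pass the adjusted threshold. The ratio of Stk39 to Oxsr1 was 1.17, 1.05 and 1.07 in WT, against 0.996, 0.816 and 0.915 in *Fmr1* KO, without overlap and without a test. Oxsr1 was already separated by itself and Stk39 was not, so this ratio is no second result. Of single loci, 21.1% did not overlap in either direction.

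**Figure D3:**
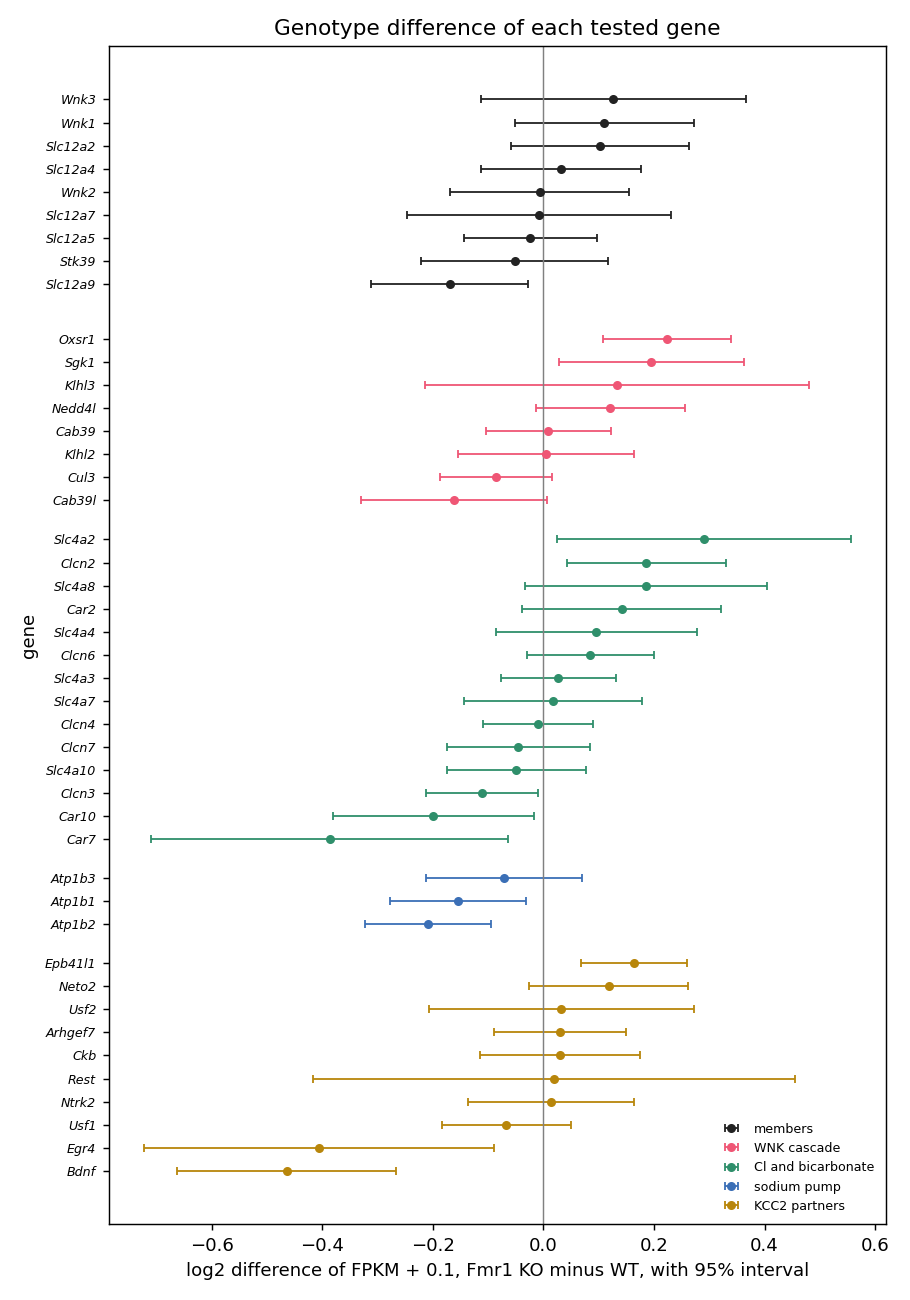
Log2 difference of FPKM + 0.1 (*Fmr1* KO minus WT, points) with its 95% interval from limma (bars), for the 9 genes in black and the other tested genes of the pathway lists in colour. Of the 9 genes, the interval of Slc12a9 alone leaves out 0, and no gene drawn has an adjusted p below 0.05.

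The other genes of the pathway were taken from lists of 39 genes, of which 35 were tested. None passed an adjusted p below 0.05 in limma (0.265% of all tested loci did), and 12 of 35 had an unadjusted p below 0.05 in limma, 5 higher and 7 lower in *Fmr1* KO, beside 14.8% of all tested loci. The genotypes did not overlap in 6 of the 35 with *Fmr1* KO above WT and in 10 with *Fmr1* KO below, beside 10.8% and 10.3% of loci. Oxsr1, Slc4a2, Slc4a8, Car7, Car10, Atp1b2, Bdnf and Egr4 are on the study's own list of changed transcripts, which was chosen on these libraries, so their directions are no independent evidence. The median log2 difference was 0.02 for these 35 and 0.005 for all tested loci. Of other SLC12 genes, Slc12a1 (at most 0.0340 FPKM), Slc12a3 (at most 0.0404 FPKM) and Slc12a8 (at most 0.314 FPKM) were too low to be tested. Slc12a1 and Slc12a3 encode the kidney cotransporters NKCC2 and NCC.

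In the WNK cascade list, 6 of 8 tested genes had a log2 difference above 0 and 2 below. The genotypes did not overlap in 5 of the 8, with *Fmr1* KO above in Oxsr1, Sgk1 and Nedd4l and below in Cul3 and Cab39l. Over all tested loci, 10.8% were separated with *Fmr1* KO above and 10.3% with *Fmr1* KO below. At an unadjusted p below 0.05 in limma there were 2 genes higher and 0 lower, beside 6.99% and 7.77% of all tested loci. Besides Oxsr1, Sgk1, a kinase of the same pathway induced by glucocorticoids, had 9.41 ± 0.588 FPKM in WT, against 10.8 ± 0.677 in *Fmr1* KO (SD, n = 3; log2 difference 0.20, adjusted p = 0.273 in limma). Cab39 and Cab39l encode MO25 scaffold proteins that activate SPAK and OSR1. Cab39 had a log2 difference of 0.01 (adjusted p = 0.957 in limma) and Cab39l of -0.16 (adjusted p = 0.357 in limma). Klhl2, Klhl3 and Cul3 encode parts of the ubiquitin ligase that degrades WNK kinases, with log2 differences of 0.005, 0.13 and -0.09 (adjusted p = 0.983, 0.737 and 0.419 in limma). Nedd4l, a ubiquitin ligase of ion transport proteins, had a log2 difference of 0.12 (adjusted p = 0.385 in limma).

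Among 14 genes for other chloride and bicarbonate routes, 8 had a log2 difference above 0 and 6 below. At an unadjusted p below 0.05 in limma there were 2 higher and 3 lower, beside 6.99% and 7.77% of all tested loci. Separated libraries were found in 2 genes with *Fmr1* KO above and 3 with *Fmr1* KO below, beside 10.8% and 10.3% of loci. The largest positive difference was in Slc4a2, an anion exchanger, from 4.12 ± 0.612 to 5.03 ± 0.427 FPKM (SD, n = 3; log2 difference 0.29, adjusted p = 0.300 in limma). The largest negative one was in Car7, the neuronal carbonic anhydrase that supplies bicarbonate for GABA responses. Car7 had 1.95, 1.71 and 1.66 FPKM in WT, against 1.39, 1.35 and 1.25 in *Fmr1* KO (log2 difference -0.39, standard error 0.14, adjusted p = 0.264 in limma). Its genotypes did not overlap.

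The sodium pump maintains the sodium and potassium gradients that drive the cotransporters, and 3 genes for its beta subunits were compared. All 3 had a log2 difference below 0, with a median of -0.15. In 2 of the 3 every *Fmr1* KO library was below every WT library, a pattern seen in 10.3% of all tested loci, and the same 2 had an unadjusted p below 0.05 in limma, beside 7.77% of all tested loci lower in *Fmr1* KO. The largest negative difference was in Atp1b2, the glial beta subunit, with 143, 150 and 157 FPKM in WT, against 129, 134 and 126 in *Fmr1* KO (log2 difference -0.21, standard error 0.05, adjusted p = 0.130 in limma). The other gene with an unadjusted p below 0.05, Atp1b1, named here after its values were seen, had a log2 difference of -0.15 (adjusted p = 0.251 in limma). Atp1b3, a further beta subunit, had the smallest difference, from 29.5 ± 2.17 to 28.1 ± 0.751 FPKM (SD, n = 3; log2 difference -0.07, adjusted p = 0.644 in limma), and its genotypes overlapped. The astrocyte markers summed to 1081 to 1263 FPKM in WT, against 1120 to 1233 in *Fmr1* KO. Their members went both ways, and all overlapped: Gfap, Aldh1l1 and Aqp4 had higher means in *Fmr1* KO, and Slc1a3 and Gja1 lower ones. Gfap had 576 ± 49.6 FPKM in WT, against 634 ± 39.2 in *Fmr1* KO, and Gja1 had 108 ± 12.4 against 94.5 ± 2.66 (SD, n = 3).

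Among 10 genes for partners and regulators of KCC2, 7 had a log2 difference above 0 and 3 below. At an unadjusted p below 0.05 in limma there were 1 higher and 2 lower, beside 6.99% and 7.77% of all tested loci. Libraries did not overlap in 1 gene with *Fmr1* KO above and in 3 with *Fmr1* KO below, beside 10.8% and 10.3% of loci. Bdnf, the neurotrophin known to regulate Slc12a5 expression, had the largest negative difference. It had 16.4, 15.0 and 13.4 FPKM in WT, against 11.7, 10.6 and 10.1 in *Fmr1* KO, a log2 difference of -0.46 (standard error 0.09, adjusted p = 0.0753 in limma). The genotypes did not overlap, and the difference did not pass the adjusted threshold. Epb41l1, which encodes the cytoskeletal protein 4.1N that binds KCC2, had the largest positive difference, from 89.7 ± 1.87 to 101 ± 1.64 FPKM (SD, n = 3; log2 difference 0.16, adjusted p = 0.149 in limma).

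The cultures held neurons and glia in both genotypes. Markers of excitatory neurons summed to 825 to 860 FPKM in WT, against 859 to 928 in *Fmr1* KO, and those of inhibitory neurons to 307 to 329 and 336 to 347, the latter without overlap. Microglia markers were low and summed to 2.96 to 4.63 FPKM in WT, against 0.927 to 1.72 in *Fmr1* KO, with Tmem119 listed at 0 in all libraries. Endothelial and mural markers summed to 6.70 to 7.21 and 5.98 to 6.77 FPKM, with Cldn5 listed at 0 in all libraries. Of the 6 choroid plexus markers, Ttr carried nearly all of the sum in *Fmr1* KO, at 56.6, 52.0 and 60.7 FPKM, against 0, 0 and 0.0910 in WT, and Kl was listed at 0 throughout. Folr1 had 0.487 to 1.16 FPKM in WT, against 0.534 to 1.63 in *Fmr1* KO, and the other 3 (Kcnj13, Otx2 and Clic6) were below 1 FPKM in every library. At these low levels the other 3 were higher in every *Fmr1* KO library than in any WT library. Clic6 had 0.386 to 0.704 FPKM in *Fmr1* KO, against 0.0625 to 0.0941 in WT. Kcnj13 had 0.0695 to 0.140 against 0 to 0.0156, and Otx2 had 0.149 to 0.231 against 0.0221 to 0.128. The part of these cell types in the differences above was not tested.

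**Figure D4:**
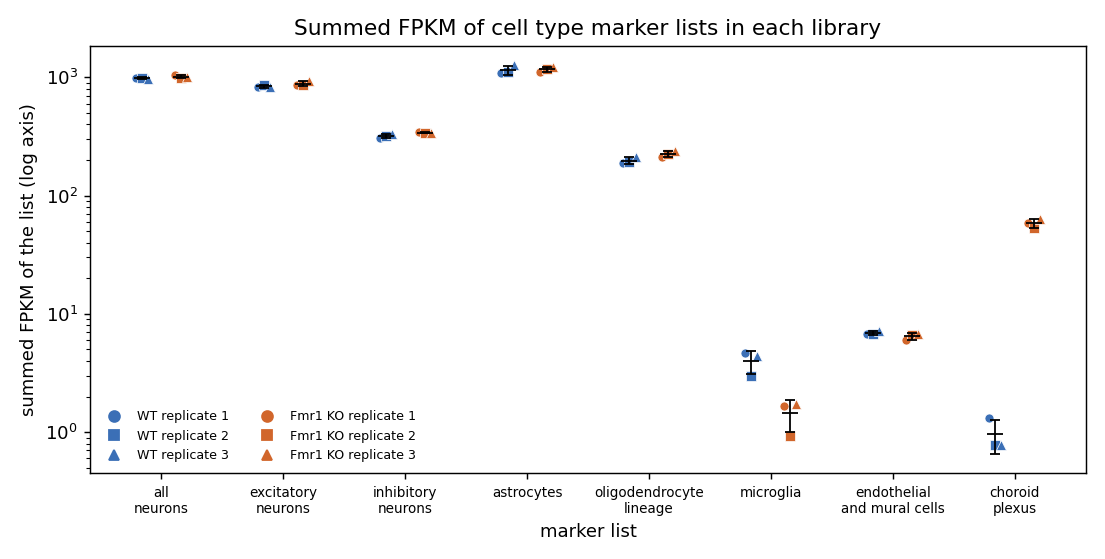
Summed FPKM (log axis) of 8 marker lists in each library, in blue for WT and orange for *Fmr1* KO, with a marker shape for each replicate number and black bars for mean and SD (n = 3). Sums for all neurons, excitatory neurons and astrocytes overlap between genotypes, inhibitory neuron sums are higher in every *Fmr1* KO library (336 to 347 against 307 to 329), microglia sums are lower in every *Fmr1* KO library (0.927 to 1.72 against 2.96 to 4.63), and choroid plexus sums, nearly all Ttr in *Fmr1* KO, are higher (53.3 to 63.4 against 0.780 to 1.31).

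The loci whose profile over the 6 libraries was nearest to that of Slc12a5, by the root mean square difference of log2 values centred on each gene's mean, were Apba1 (0.0176), Adam17 (0.0179) and Atp2b3 (0.0185). Nearest to Slc12a2 were Mgat5 (0.0119), Masp1 (0.0131) and Zeb2 (0.0166), whose locus also holds Mir5129. This is a description of 6 libraries: out of 13186 loci compared, 684 lay within 0.05 of Slc12a5 and 350 within 0.05 of Slc12a2.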

How the data were processed

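Total RNA of 3 WT and 3 *Fmr1* KO hippocampal cultures (day 14 in vitro) had been sequenced, and groups were taken from the sample labels. As the methods state, the authors removed adapters (Fastx Clipper), trimmed reads (sickle), mapped them to GRCm38 (TopHat2), built genes (Cufflinks) and compared genotypes (Cuffdiff). No source used here names the versions, annotation, strandedness or library scaling. What the authors deposited is FPKM per library. Their columns of group values, fold changes and p-values were not used. FPKM are not counts, depth is unknown, and no counting interval was computed.

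Each locus was tested once with limma 3.58.1 in R 4.3.3 on log2(FPKM + 0.1). Tested loci had a mean of at least 1 FPKM in either genotype, and the fit was made with genotype as the only term, a mean-variance trend, and 95% intervals from the same fit. The script was tested on simulated data. For a symbol with several loci, the locus of highest mean was used. Starts in the table count from 0 and were raised by 1. Of 46770 rows matched to RefSeq (GRCm38.p6) by gene ID, 25159 then had an equal start.

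The 9 genes, the pathway lists and the marker lists were chosen with earlier results of these data known. Named by rule were the 9 genes, *Fmr1*, the genes of the other SLC12 and WNK cascade lists, the extremes of each other list and the 3 nearest profiles of Slc12a5 and Slc12a2. The remaining genes of the lists enter counts only, and 4 further genes were left out of every list and are not reported here. The ratio of Stk39 to Oxsr1, the shares and the marker sums were added without a test. As alternatives, pseudocounts of 1 and 0.01, a minimum of 0 or 5 FPKM, centred libraries, rescaling to an equal sum without Bc1 (TPM scale), limma without the trend, a replicate block, summed loci, and each library left out were tried. The exons of Slc12a4 and Wnk3 overlap opposite-strand genes (Gm16156 and A230072E10Rik). A230072E10Rik had at most 0.133 FPKM, and Gm16156 was not analysed here.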

Additional observations from a re-analysis of the deposited data

How the results depend on the processing

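Summing loci left the 9 genes as they were, since each has 1 locus. None of the 125 other alternative values reached an adjusted p below 0.05 in limma (lowest 0.195, for Slc12a9 with the replicate block), and 9 of them, all from leaving out a library, turned the sign of a difference near 0. The count of called genes among the 9 stayed at 0 throughout. Leaving out each library gave log2 differences of -0.0072 to 0.073 for Slc12a4, -0.059 to 0.017 for Slc12a5, -0.055 to 0.067 for Slc12a7, -0.042 to 0.058 for Wnk2, -0.104 to 0.0026 for Stk39, -0.020 to 0.040 for Cab39, -0.034 to 0.073 for Klhl2, -0.032 to 0.269 for Klhl3 and 0.05 to 0.21 for *Fmr1*. On the scale without Bc1, where the median of all loci was -0.03, Cab39 had -0.022 and Klhl2 -0.026. On that scale no gene of the 9 and 2 other pathway genes had an unadjusted p below 0.05 in limma, and without *Fmr1* KO replicate 2 there were 6 pathway genes. Standard errors were larger on the scale without Bc1, at 0.178 for Slc12a9 and 0.177 for Oxsr1, against 0.06 and 0.05 in the main fit. The log2 differences of these genes were -0.201 and 0.193, against -0.17 and 0.22 in the main fit. Over all loci the calls at an adjusted p below 0.05 numbered 35, between 14 without *Fmr1* KO replicate 3 and 124 without Bc1, with 65 under the replicate block and 15 without an FPKM minimum.

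Replicate numbers were not taken as pairs, since the deviations of same-numbered libraries correlated at 0.243, 0.0577 and 0.0801. WT replicate 2 correlated slightly better with *Fmr1* KO replicate 3 (0.0658) than with *Fmr1* KO replicate 2 (0.0577). The replicate 1 libraries, at 0.243 with each other, had -0.152 to -0.119 with the differently numbered libraries of the other genotype. With the replicate block, 1 other pathway gene was called, Bdnf (log2 difference -0.46, adjusted p = 0.0293 in limma). For the Slc12a5 to Slc12a2 ratio, the mean of same-numbered log2 differences equals the unpaired -0.13 by arithmetic, so it is no check. The same-numbered differences were -0.245, -0.131 and -0.0059. The cause of the changes between settings was not tested. Depth is unknown, and 3 libraries per genotype limit the precision to the intervals given.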
